A study of Mus musculus with 73 samples.

Results

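Brinp3, Angptl7, Grik2, Nyap2, Oscar and Amigo2 are 6 of the 39438 gene symbols in a read count table of 73 mouse mammary tumours. They were selected on these same counts, by their higher RNA level in sarcomatoid tumours than in L1363P adenocarcinomas, so the levels in that group are given as a description and not as a test. The rows of the 6 symbols were read in every tumour to ask which tumours outside the sarcomatoid group carry the genes, and how evenly the 9 sarcomatoid tumours share them.

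The study compared the RNA of mouse mammary tumours that carry the Brca1 variant L1363P (genotype KB1(L1363P)P) with tumours of the KP, KB1P and KB2P models. The L1363P tumours were 9 sarcomatoid tumours (labelled 0% epithelial), 9 carcinosarcomas (2% to 98% epithelial) and 3 adenocarcinomas. KP tumours were 3 carcinosarcomas (80% to 90% epithelial) and 5 adenocarcinomas, and the remaining adenocarcinomas comprised 11 KB1P, 10 KB1PM (a KB1P genotype under a title of its own) and 23 KB2P tumours. All adenocarcinomas are labelled 100% epithelial. In the nomenclature of these mouse models, known as background and not from the labels, KP mice lose Trp53 in cells with keratin-14-driven Cre, and KB1P and KB2P mice lose Brca1 or Brca2 as well, so loss of Trp53 is common to all groups, tumours used as controls included. The labels give neither age nor treatment, and leave it unsaid whether each tumour came from its own animal. The p-values therefore cover only the spread between these samples.

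Sarcomatoid tumours and carcinosarcomas are mammary cancers in which all or a share of the tumour has a spindle-cell, mesenchyme-like histology in place of glands. The genes belong to different systems. Angptl7 encodes a secreted angiopoietin-like glycoprotein, and Brinp3 encodes a secreted protein of a family first described in the nervous system. Grik2 encodes a subunit of kainate-type glutamate receptors, and Nyap2 encodes an adaptor of phosphoinositide 3-kinase described in neurons. Oscar encodes a collagen-binding immunoglobulin-like receptor of osteoclasts and myeloid cells that signals through the Fc receptor gamma chain, and Amigo2 encodes a leucine-rich repeat adhesion protein of the cell surface.

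Libraries of L1363P and KP tumours held 13103749 to 17550129 counted reads and were all from sequencing run 5625, whereas the KB1P, KB1PM and KB2P libraries held 7325180 to 31615237 reads and came from other runs. Genotype and run can therefore not be told apart between these 2 sets. Levels are given as CPM, read counts scaled to library size, with factors from trimmed means of M values (TMM) over all 73 libraries. A count of 0 in a sarcomatoid library allows up to 3 reads, or 0.171 to 0.215 CPM at that library's total without its TMM factor. With the factor the limit is higher in these libraries: 3 reads of Nyap2 in tumour 37 were 0.226 CPM. Either limit covers counting error only. The histology labels were checked against 9 epithelial markers, whose summed level ran from 69.4 to 493 CPM in sarcomatoid tumours and from 2924 to 8927 CPM in L1363P adenocarcinomas. In KP adenocarcinoma 90.01A, labelled 100% epithelial, the same sum was 265 CPM, and in L1363P carcinosarcomas 17 and 4 it was 114 and 362 CPM, so that these 3 tumours stand apart from the rest of their groups. Another 2 tumours labelled 100% epithelial had low sums of the epithelial markers, KB2P tumour 30 with 15.9 CPM and KB1PM tumour 8 with 167 CPM. In bulk tumour RNA, fewer cells of a type and less RNA per cell cannot be told apart.

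On the GRCm38 assembly, in the GENCODE annotation, Brinp3 spans chr1:146494760-146902472 on the plus strand and Nyap2 spans chr1:81076950-81341764 on the plus strand. Angptl7 spans chr4:148495183-148500460, Grik2 spans chr10:49094833-49788766, Oscar spans chr7:3609813-3616157 and Amigo2 spans chr15:97244125-97247287, all on the minus strand. Angptl7 lies within Mtor on the opposite strand and shares 0 exon bases with it, and Amigo2 shares 58 exon bases with Pced1b on the opposite strand. Brinp3 overlaps the antisense genes Gm29514 and Gm15584. The sources used here do not state strand-specific counting, so reads of overlapping antisense genes may not be separated from those of the member.

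Nyap2 and Oscar were the pair whose levels moved together across sarcomatoid tumours, as described below, so their promoters are shown side by side. RefSeq promoters (GRCm38.p6) were found for 6 of 6 genes, and the 250 bases before the annotated start were searched on both strands. In the first pair of sequences the capitals mark GGAAA or its complement TTTCC, the core letters bound by factors of the Nfat family. This motif was added after the data had been seen. It occurs 2 times before Nyap2 and 3 times before Oscar, and in 55.6% of all 32851 promoters. It is not particular to this pair: 5 of the 6 genes hold it, with 2 matches before Angptl7, 2 before 2 of the 3 starts of Brinp3 and 1 before Grik2.
Nyap2, chr1:81076700-81076949, plus strand: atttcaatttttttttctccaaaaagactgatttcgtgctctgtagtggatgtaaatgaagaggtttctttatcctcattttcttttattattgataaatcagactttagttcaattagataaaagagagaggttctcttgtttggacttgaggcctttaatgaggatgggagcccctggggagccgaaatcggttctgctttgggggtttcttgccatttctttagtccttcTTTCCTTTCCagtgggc
Oscar, chr7:3616158-3616407, minus strand: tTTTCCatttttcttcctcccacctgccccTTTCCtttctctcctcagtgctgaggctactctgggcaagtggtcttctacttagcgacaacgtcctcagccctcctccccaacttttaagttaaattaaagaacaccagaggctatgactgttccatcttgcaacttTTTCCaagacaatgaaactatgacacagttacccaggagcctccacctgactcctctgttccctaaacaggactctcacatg
The promoter of Angptl7, the gene with the highest median level per kilobase of exon in sarcomatoid tumours, is shown with every E-box (CANNTG) in capitals.
Angptl7, chr4:148500463-148500712, minus strand: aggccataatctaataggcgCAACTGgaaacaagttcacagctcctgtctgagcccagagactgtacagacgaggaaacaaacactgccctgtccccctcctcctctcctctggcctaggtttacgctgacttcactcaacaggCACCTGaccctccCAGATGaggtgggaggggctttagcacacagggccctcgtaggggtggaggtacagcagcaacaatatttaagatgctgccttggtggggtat
The E-box CANNTG occurs 3 times before Angptl7, 4 times before Oscar, and in 66.2% of all promoters. Its special case CACCTG, which Snail and Zeb factors bind and which CANNTG contains, occurs 1 time before Angptl7 and 2 times before Oscar, and in 17.2% of all promoters. The AP-1 motif TGANTCA was found in none of the 6 genes' promoters (6.75% of all hold it), and the TEAD motif GGAATG in 2 of the 3 starts annotated for Brinp3 (12.6% of all). A match is a description of letters, not of a bound site. The promoters otherwise differed widely: GC content was 38.8% before Nyap2, 47.2% before Oscar, 54.4% before Angptl7, 62.8% before Grik2 and 84.0% before Amigo2.

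Per kilobase of exon, the median level in sarcomatoid tumours was 172 CPM for Angptl7, 35.2 for Brinp3, 7.39 for Amigo2, 2.07 for Oscar, 1.71 for Grik2 and 0.184 for Nyap2. Angptl7 was thus the most abundant and Nyap2 the least abundant transcript of the set on the per-length scale. The values that follow are CPM not divided by length and are compared within 1 gene.

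Angptl7, the secreted angiopoietin-like factor, had 835 CPM in sarcomatoid tumour 20, 726 in 41, 473 in 40.1, 382 in 29, 370 in 43 and 345 in 10. It had 98.1 CPM in tumour 32, 72.9 in 37 and 2.11 in 9.1. The mean was 367 ± 285 CPM (SD, n = 9). In L1363P adenocarcinomas it had 0.14, 0.51 and 2.28 CPM, so that 1 of the 3 adenocarcinomas lay above sarcomatoid tumour 9.1 and the ranges overlapped. Its group medians outside the sarcomatoid tumours all lay between 0.44 CPM (KP adenocarcinomas) and 1.47 CPM (KB2P), in contrast to 370 CPM inside. The fitted log2 fold change of sarcomatoid tumours over adenocarcinomas was 8.47 (SE 3.23).

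Brinp3, the neural secreted protein gene, lay between 192 and 383 CPM in 8 of the 9 sarcomatoid tumours. The ninth, tumour 10, had 1.33 CPM, from 19 reads. The mean was 245 ± 112 CPM (SD, n = 9). L1363P adenocarcinomas had 0.32, 0.55 and 1.22 CPM, just under tumour 10. On this scale the ranges did not overlap, but tumour 10 held 19 reads and adenocarcinoma 52 held 18, and without TMM factors they had 1.13 and 1.17 CPM, so that the ranges then overlapped. Carcinosarcomas came next in the order of medians, with 15.1 CPM for L1363P and 4.35 CPM for KP, followed by KP adenocarcinomas (1.62), L1363P adenocarcinomas (0.55), KB1PM (0.281), KB1P (0.0279) and KB2P (0). Each of these neighbours overlapped the next in range. The fitted log2 fold change of sarcomatoid tumours over adenocarcinomas was 8.38 (SE 2.57).

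Grik2, the kainate receptor subunit gene, was counted in 8 of the 9 sarcomatoid tumours, at 6.95 to 40.4 CPM with tumours 29, 20 and 41 at the top. Tumour 10 held 0 reads of it. The 3 L1363P adenocarcinomas held 4 reads in all, at 0.06 to 0.12 CPM, and the 9 L1363P carcinosarcomas ran from 0.07 to 40.2 CPM with a median of 3.79. The range of the sarcomatoid tumours overlapped that of every other group. Without tumour 10 it still overlapped L1363P carcinosarcomas, KP adenocarcinomas, KB2P and KB1PM tumours, whose highest values were 40.2, 75.1, 15.2 and 9.70 CPM.

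Nyap2 and Oscar were low in most sarcomatoid tumours and very high in one. Nyap2, the phosphoinositide 3-kinase adaptor gene, had 96.7 CPM in tumour 9.1 and 0.18 to 5.65 CPM in the other 8 tumours. Oscar, the osteoclast receptor gene, had 148 CPM in tumour 9.1 and 0.30 to 7.92 CPM in the other 8. For each of them tumour 41 came second, 17.1-fold lower than tumour 9.1 for Nyap2 and 18.7-fold lower for Oscar. L1363P adenocarcinomas held 1 read of Nyap2 and 4 reads of Oscar in all. In the KB1P, KB1PM and KB2P tumours the highest values were 0.20 CPM for Nyap2 and 0.45 CPM for Oscar.

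Amigo2, the adhesion protein gene, differed from the other 5 in its order of groups. Its median was highest in L1363P carcinosarcomas (31.7 CPM), then in KP carcinosarcomas (26.0 CPM) and only then in sarcomatoid tumours (23.4 CPM). Within the sarcomatoid group it ran from 5.16 CPM in tumour 43 to 90.7 CPM in tumour 20. KP adenocarcinomas had a median of 8.36 CPM, and KB1PM, KB2P, KB1P and L1363P adenocarcinomas had medians of 3.15, 2.55, 1.71 and 1.66 CPM. Neighbouring groups in this order overlapped in range, and the highest L1363P adenocarcinoma (2.75 CPM) lay below the lowest sarcomatoid tumour.

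**Figure D1:**
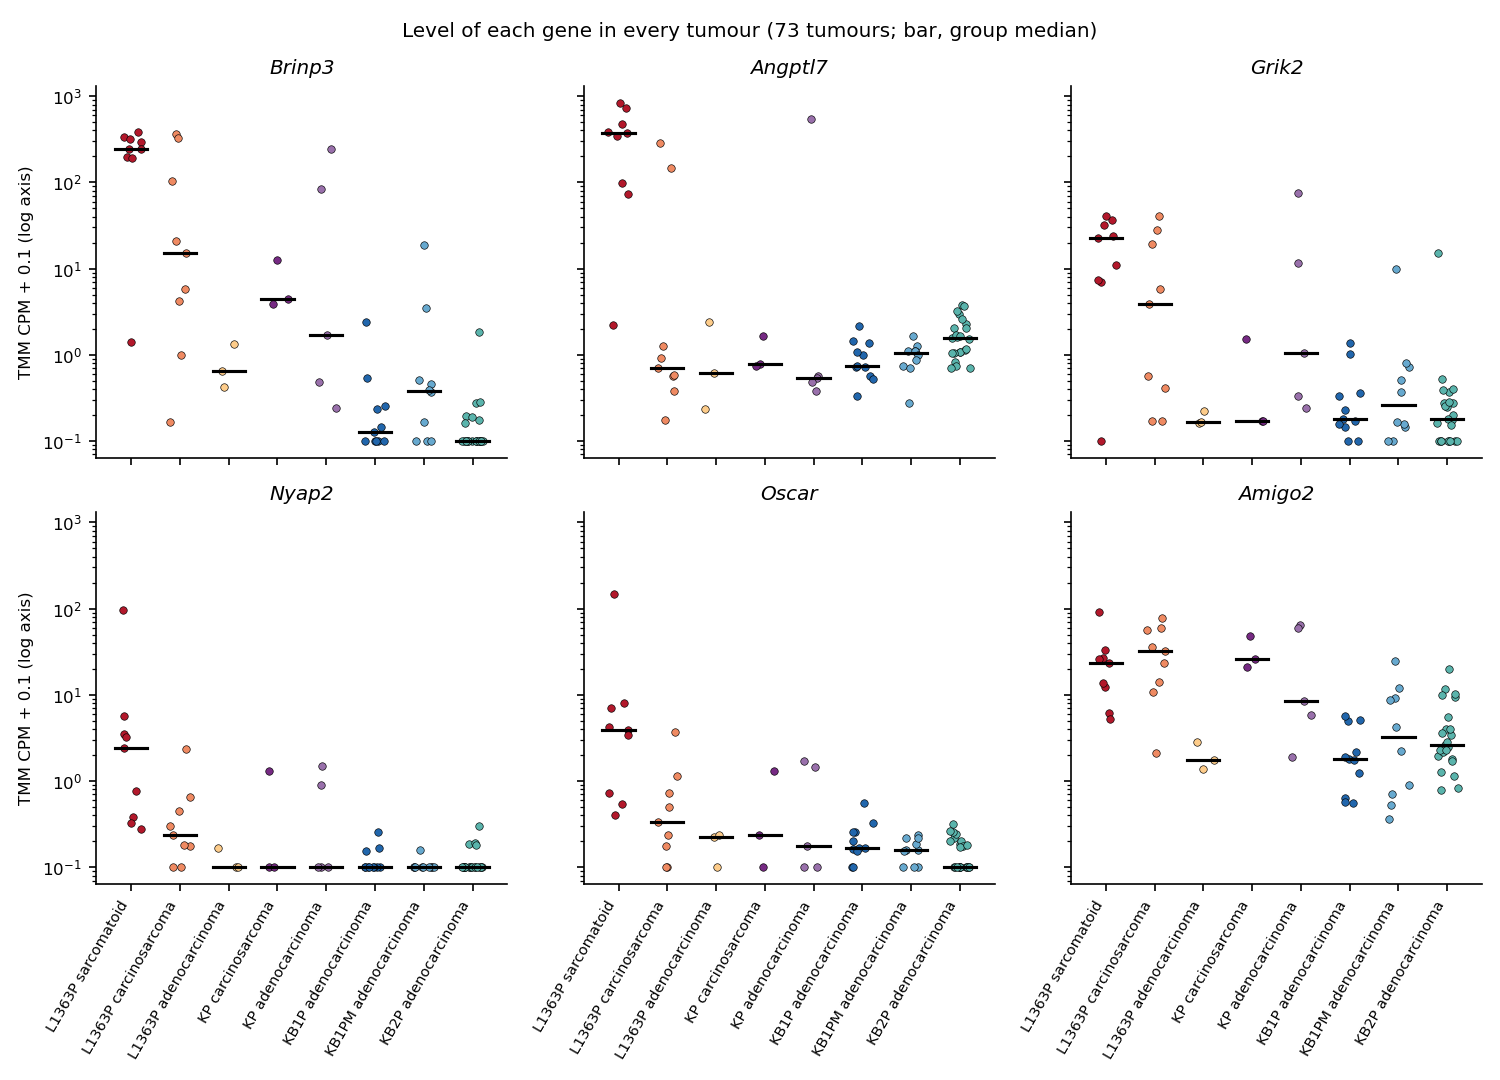
TMM CPM plus 0.1 of each gene (log axis) in every one of the 73 tumours, 1 point per tumour, with a bar at the group median. Sarcomatoid tumour 10 lies far below the other 8 for Brinp3 and Grik2, tumour 9.1 far above them for Nyap2 and Oscar and far below for Angptl7, and single carcinosarcomas and KP adenocarcinomas reach the sarcomatoid range.

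In TMM CPM the sarcomatoid and adenocarcinoma ranges of L1363P tumours did not overlap for Brinp3, Nyap2, Oscar and Amigo2, and overlapped for Angptl7 and Grik2. The share of all genes without such overlap was not computed. Since this comparison chose the genes, nothing is read from the separation. Without TMM factors the ranges of Brinp3 overlapped. For Nyap2 the nearest tumours of the 2 groups held 2 reads and 1 read, and for Oscar 4 and 2 reads. Such differences are not detectable at this depth. Of all 16147 genes tested in that comparison, edgeR called 12.1% higher in sarcomatoid tumours, and since the comparison chose the genes nothing is read from this count. Without adenocarcinoma 26.2 the number of genes called in either direction was 2490 and not 4945 (30.6%). Set against L1363P carcinosarcomas, where edgeR called 21.5% of genes in either direction and 7.45% as higher, every one of the 6 ranges overlapped. For overlap there too, no share over all genes was computed. The fitted log2 fold changes there were 2.93 for Angptl7, 1.39 for Brinp3, 0.86 for Grik2, 4.88 for Nyap2, 4.79 for Oscar and -0.43 for Amigo2. Without sarcomatoid tumours 9.1 and 10, the values of Nyap2 and Oscar were 2.41 and 2.46, and with KP adenocarcinoma 90.01A and carcinosarcomas 17 and 4 left out those of Angptl7 and Brinp3 were 9.31 and 3.50 and that of Amigo2 was 0.05, with its sign reversed.

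Outside the sarcomatoid group, the genes were carried together by few tumours. Each of the 64 other tumours was compared with the lowest sarcomatoid value of each gene. At that bound 17 tumours carried Brinp3 (1.33 CPM or more), 10 Angptl7 (2.11 CPM), 8 Nyap2 (0.178 CPM), 8 Oscar (0.302 CPM) and 26 Amigo2 (5.16 CPM). For Grik2 the bound was 0 and all 64 met it. At the second-lowest sarcomatoid value, a bound chosen after seeing that tumours 9.1 and 10 set the first, the counts were 3 for Brinp3 (192 CPM), 3 for Angptl7 (72.9 CPM), 7 for Grik2 (6.95 CPM), 6 for Nyap2 (0.226 CPM), 7 for Oscar (0.446 CPM) and 23 for Amigo2 (6.11 CPM). The bounds of Nyap2 and Oscar correspond to a few reads per library.

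The 3 tumours that reached the second-lowest bound for Brinp3 also reached it for Angptl7, and all 3 had low sums of the epithelial markers. Low sums were not confined to them: KB2P tumour 30 (15.9 CPM) and KB1PM tumour 8 (167 CPM) had 0 reads of Brinp3, and 2.49 and 0.904 CPM of Angptl7. L1363P carcinosarcoma 17 (5% epithelial) had 363 CPM of Brinp3, 288 of Angptl7, 19.4 of Grik2 and 77.2 of Amigo2. L1363P carcinosarcoma 4 (2% epithelial) had 329 CPM of Brinp3, 147 of Angptl7, 40.2 of Grik2 and 59.9 of Amigo2. KP adenocarcinoma 90.01A had 243 CPM of Brinp3, 540 of Angptl7, 75.1 of Grik2 and 65.0 of Amigo2. In all 3, Nyap2 stayed at or under 0.79 CPM and Oscar at or under 1.35 CPM. The part of epithelial content in these levels was not tested.

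A second set of tumours carried some genes without Angptl7. KP adenocarcinoma 39, with 2694 CPM summed over the epithelial markers, had 83.4 CPM of Brinp3, 11.5 of Grik2, 59.9 of Amigo2, 1.38 of Nyap2 and 1.60 of Oscar, and 0.44 CPM of Angptl7. L1363P carcinosarcoma 18 (40% epithelial, with 2543 CPM of these markers) had 103 CPM of Brinp3, 28 of Grik2 and 23.2 of Amigo2, and 1.16 CPM of Angptl7. Its 2.25 CPM of Nyap2 and 3.63 CPM of Oscar were the highest of all 64 tumours outside the sarcomatoid group. At the second-lowest bound 5 tumours carried at least 4 of the 6 genes, namely KP adenocarcinomas 90.01A and 39 and L1363P carcinosarcomas 17, 18 and 4, and 38 of the 64 carried none.

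Among the KB1P, KB1PM and KB2P tumours, 9 reached the second-lowest sarcomatoid value for Amigo2, 2 for Grik2, 1 for Oscar and 0 for Brinp3, Angptl7 and Nyap2. KB2P tumour 31 had 15.2 CPM of Grik2, from 169 reads, beside 2 reads of Brinp3. KB1PM tumour 6 had 18.5 CPM of Brinp3, from 218 reads, and 9.70 CPM of Grik2. The highest levels of Amigo2 were 24.9 CPM in KB1PM tumour 3 and 19.9 CPM in KB2P tumour 5. The highest level of Angptl7 among them was 3.70 CPM, in a KB2P tumour.

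Within the sarcomatoid group, evenness was read from each tumour's share of the summed CPM of the 9, where an even split would give 11.1% each. Brinp3 was the most even: its largest share was 17.3%, in tumour 43, and its effective number of tumours (1 over the sum of squared shares) was 7.60. Grik2 had a largest share of 22.4% in tumour 29 and 6.14 effective tumours. Angptl7 had 25.3% in tumour 20 and 5.85, and Amigo2 had 38.3% in tumour 20 and 4.82. Nyap2 and Oscar were nearly single-tumour genes, with 85.9% and 84.3% of their sums in tumour 9.1 and 1.35 and 1.40 effective tumours.

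Over 11303 genes with a summed level of at least 45 CPM in these 9 tumours, the median largest share was 15.2% and the 95th percentile was 32.0%. As large a share as that of Brinp3 was reached by 30.3% of these genes, as that of Grik2 by 12.9% and as that of Angptl7 by 9.11%. For Amigo2 the figure was 3.14%, for Oscar 0.265% and for Nyap2 0.239%. Of the 39 genes with over 80% in 1 tumour, 12 had it in tumour 9.1 and 17 in tumour 10.

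**Figure D2:**
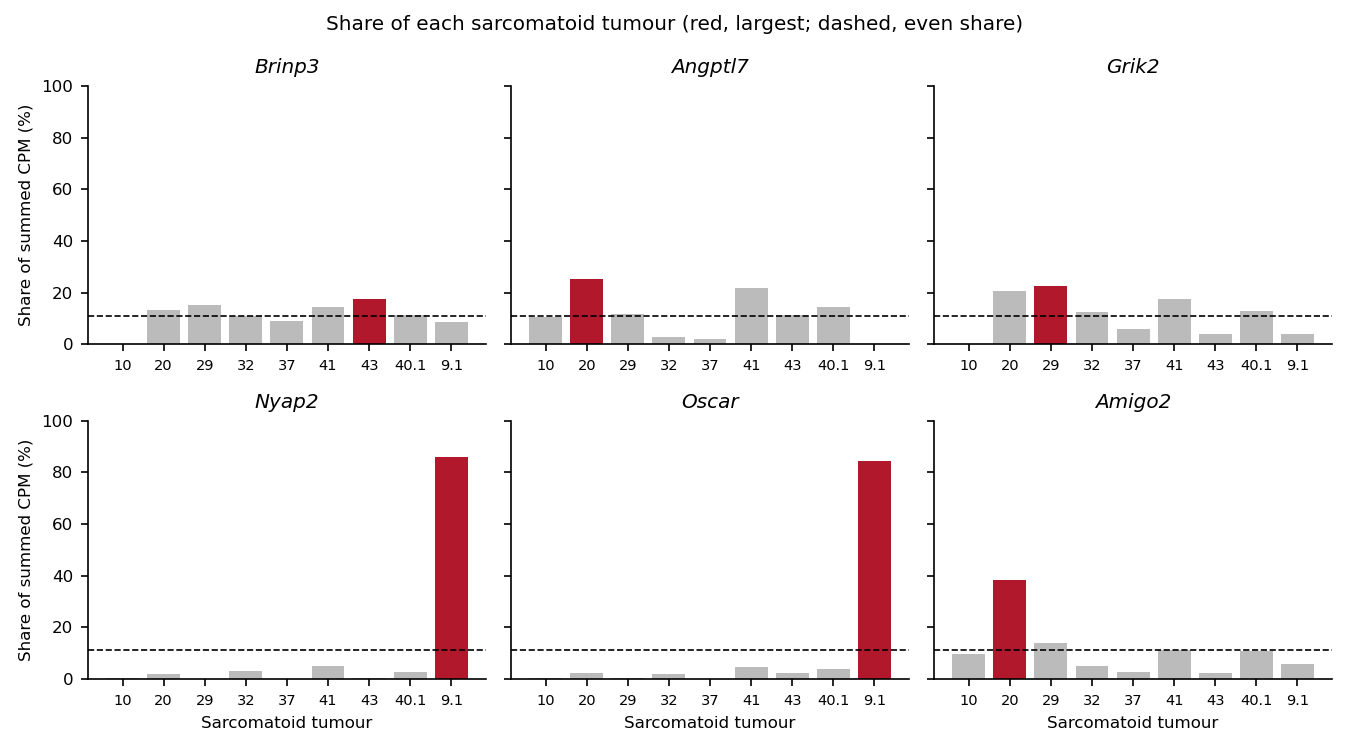
Percentage of each gene's summed CPM (vertical axis) held by each of the 9 sarcomatoid tumours (horizontal axis), with the largest share in red and the even share of 11.1% as a dashed line. Brinp3 is spread over 8 tumours, and Nyap2 and Oscar have 85.9% and 84.3% of their sums in tumour 9.1.

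Tumours 9.1 and 10 were the exceptions for most of the genes, each in its own way. Tumour 9.1 carried Brinp3 (192 CPM), Nyap2 and Oscar and had 0.0638% of the group's Angptl7. Tumour 10 carried Angptl7 (345 CPM) and Amigo2 (23.4 CPM) and had 0.0600% of the group's Brinp3 and no read of Grik2. The other 7 tumours each had at least 195 CPM of Brinp3, 72.9 of Angptl7 and 6.95 of Grik2. Tumours 9.1 and 10 also had the highest sums of skeletal muscle markers in the group, 250 and 160 CPM against 4.08 to 26.2 CPM in the other 7. The part of muscle RNA in the levels of the 6 genes was not tested.

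Correlations of log2(CPM + 0.5) across the 9 sarcomatoid tumours were computed for all 15 pairs of genes. Nyap2 and Oscar gave a Pearson r of 0.966 (exact two-sided permutation p = 0.000389, adjusted over the 15 pairs 0.00583). Their Spearman rho was 0.867 (exact permutation p = 0.00451, adjusted 0.0676), and r was 0.858 without the 2 tumours farthest from the median of Nyap2. No other pair passed after adjustment. Without tumours 9.1 and 10 the r of Nyap2 and Oscar was 0.867, with an adjusted exact permutation p of 0.0789, so the call rests on those tumours. Brinp3 and Grik2 had an r of 0.895 (exact permutation p = 0.0220, adjusted 0.165) and a Spearman rho of 0.517. Their r was 0.945 without the 2 tumours farthest from the median of Brinp3, and 0.08 without tumours 9.1 and 10.

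The ratio of the reads of Nyap2 and Oscar varied between tumours. In the 13 tumours with at least 10 reads of both genes together, Nyap2 had 0.161 to 1.05 reads per read of Oscar, with a median of 0.6. The ends of this range were both sarcomatoid, tumour 43 with 9 and 56 reads and tumour 32 with 46 and 44 reads. Tumour 9.1, with 1192 reads of Nyap2 and 1822 of Oscar, had 0.654. L1363P carcinosarcoma 18, with 31 and 50 reads, had 0.62, and KP adenocarcinoma 39, with 19 and 22, had 0.864.

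Osteoclast genes were high where Nyap2 and Oscar were high. In tumour 9.1, Ctsk, the collagen-degrading cathepsin K, had 7783 CPM against 20.5 to 802 CPM in the other 8 sarcomatoid tumours. Acp5, the tartrate-resistant acid phosphatase, had 5436 CPM against 37.1 to 565 CPM, and Atp6v0d2, a subunit of the osteoclast proton pump, had 971 CPM against 4.83 to 72.2 CPM. The fusion genes Dcstamp and Ocstamp had 295 and 292 CPM, where the highest of the other 8 had 16.6 and 16.8 CPM. Calcr, the calcitonin receptor, had 27.8 CPM against at most 2.91 CPM, and Nfatc1, the transcription factor of osteoclast formation, had 810 CPM against at most 114 CPM. All 8 osteoclast markers were highest in tumour 9.1 among the 9. By ratio to the next tumour the excess was smallest for Itgb3 (341 against at most 252 CPM) and Tnfrsf11a (229 against at most 110 CPM). Nfatc1 is not one of the 8.

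The summed level of the 8 osteoclast markers was 15376 CPM in tumour 9.1 and 181 to 1656 CPM in the other 8 sarcomatoid tumours. It was 174 to 1098 CPM in L1363P carcinosarcomas, with carcinosarcoma 18 at the top, and 175 to 248 CPM in L1363P adenocarcinomas. KP adenocarcinomas had 139 to 768 CPM, with tumour 39 at the top, and KP carcinosarcomas 301 to 489 CPM, with tumour 5 at the top. The KB tumours had 81.5 to 377 CPM. Among L1363P carcinosarcomas, KP adenocarcinomas and KP carcinosarcomas the tumour at the top was also the one with the most Nyap2 and Oscar. Among L1363P adenocarcinomas it was not: tumour 7.2 had the highest sum, and tumour 52 the most Nyap2 and Oscar. Tumour 52 held 1 read of Nyap2 and 2 of Oscar, and tumour 7.2 held 0 and 2. The order among these adenocarcinomas can therefore not be read at this depth. Calcr was at 0 in 3 L1363P carcinosarcomas, 1 L1363P adenocarcinoma and 1 KP adenocarcinoma.

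Correlations with this marker sum, chosen after its values in tumour 9.1 were seen, were computed for the 6 genes over the 9 sarcomatoid tumours. Oscar gave r = 0.978 (exact permutation p = 3.31e-05, adjusted over the 6 genes 0.000174) and rho = 0.917 (adjusted 0.00394). Nyap2 gave r = 0.960 (exact permutation p = 5.79e-05, adjusted 0.000174) and rho = 0.933 (adjusted 0.00394). Without the 2 tumours farthest from the median of the sum, r was 0.929 for Oscar and 0.907 for Nyap2. Without tumour 9.1 it was 0.932 for Oscar (adjusted exact permutation p = 0.00179) and 0.873 for Nyap2 (0.00655). Brinp3, Angptl7, Grik2 and Amigo2 did not pass (adjusted exact permutation p of 0.259 or more). These p-values take no account of how the 6 genes and the marker sum were chosen. The part of osteoclast RNA in the levels of Nyap2 and Oscar was not tested.

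**Figure D3:**
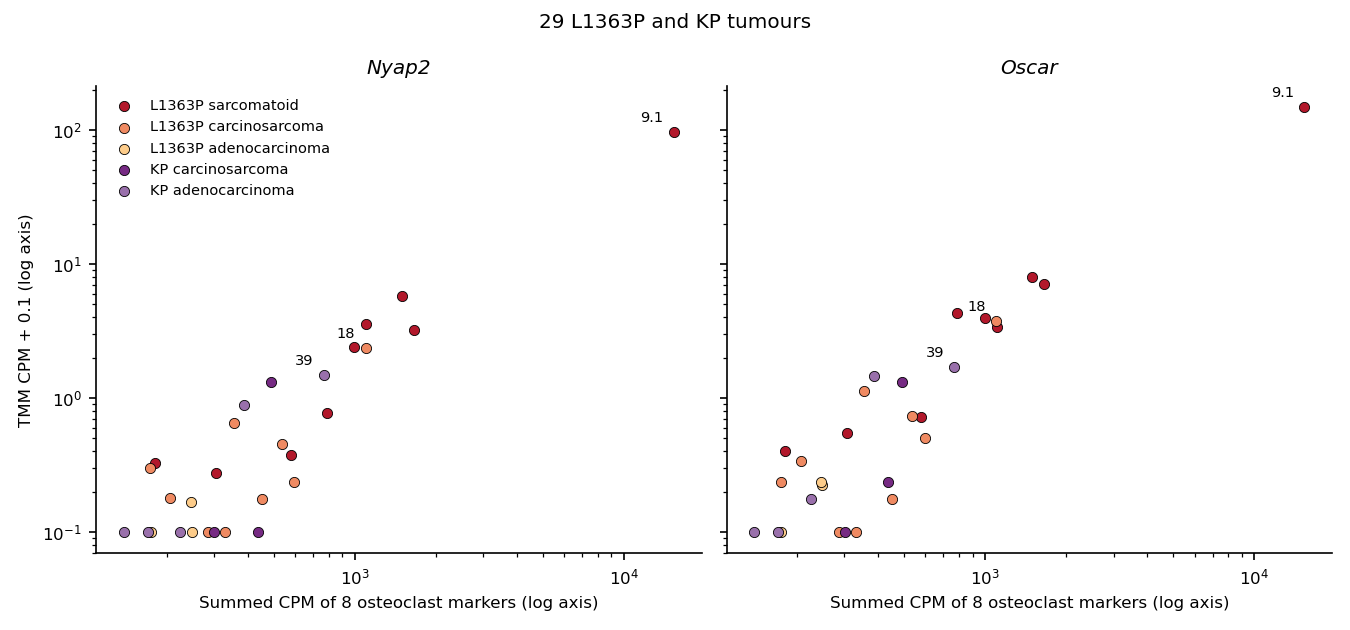
TMM CPM plus 0.1 of Nyap2 and Oscar (vertical log axis) against the summed CPM of 8 osteoclast markers (horizontal log axis) in the 29 L1363P and KP tumours, 1 point per tumour, coloured by group. Sarcomatoid tumour 9.1 lies at the upper right at a sum of 15376 CPM, and L1363P carcinosarcoma 18 and KP adenocarcinoma 39 lie at the upper end of their own groups.

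Angptl7 and Brinp3 were lower at a higher labelled epithelial percentage within the 9 L1363P carcinosarcomas. The slope was fitted with edgeR's quasi-likelihood test on 14645 genes, of which 1222 (8.34%) passed at a Benjamini-Hochberg adjusted p (BH) under 0.05, 5.76% with lower and 2.59% with higher levels at a higher percentage. Of the 6 genes, 4 passed the filter on low counts and 2 were called, both lower. Angptl7 fell by 1.02 on the log2 scale per 10 percentage points (SE 0.10, BH-adjusted p = 0.00309), and Brinp3 fell by 0.67 (SE 0.13, BH-adjusted p = 0.0187). Grik2 had a slope of -0.47 (SE 0.17, BH-adjusted p = 0.113) and Amigo2 of -0.14 (SE 0.09, BH-adjusted p = 0.361). Nyap2 and Oscar did not pass the filter.

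Tumour by tumour, the 3 carcinosarcomas labelled at most 40% epithelial had 103 to 363 CPM of Brinp3, and the 6 above 40% had 0.07 to 20.9 CPM, with no overlap. Grik2 likewise had 19.4 to 40.2 CPM in the 3 and at most 5.63 CPM in the 6. The cut at 40% was not part of the planned comparisons. The share of all genes without overlap at this cut was not computed, so nothing is read from these separations. Angptl7 was high only in tumours 17 and 4, at 288 and 147 CPM, and was 0.08 to 1.16 CPM in the other 7, tumour 18 included. Amigo2 overlapped, at 23.2 to 77.2 CPM in the 3 and 2.03 to 56.6 CPM in the 6. Without tumours 17 and 4 edgeR called 0 of 14903 genes tested, 818 had an unadjusted p under 0.05, the slope of Brinp3 was -0.79 (BH-adjusted p = 0.869) and that of Angptl7 was -0.28 (BH-adjusted p = 0.874). The calls therefore rest on these 2 tumours. Without carcinosarcoma 54.2 the number of genes called was 755.

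Markers of other cell types moved along the same slope, in both directions. Of 9 macrophage markers, 8 fell with the percentage, among them Itgam (-0.28), Mrc1 (-0.26) and Lyz2 (-0.26, BH-adjusted p = 0.0128). Of 8 fibroblast markers, 2 fell: Pdgfra (-0.43, BH-adjusted p = 0.00832), a receptor of platelet-derived growth factor, and Dcn (-0.42), the matrix proteoglycan decorin. Of 5 neuron markers that passed the filter, 1 fell: Stmn2 (-0.58, BH-adjusted p = 0.00562), a microtubule regulator. Of 5 genes listed for Oscar signalling, 3 fell: Fcer1g (-0.22), the Fc receptor gamma chain, Tyrobp (-0.20), another adaptor chain, and Syk (-0.17), a kinase. Others rose with the percentage: the glial marker Gfap (0.43, BH-adjusted p = 0.0195), 1 of 6 in its list, the pericyte markers Cspg4 (0.30) and Rgs5 (0.19), 2 of 6 in theirs, and Neto2 (0.13, BH-adjusted p = 0.0147), an auxiliary kainate receptor subunit and 1 of 3. Of 9 epithelial markers 0 were called by edgeR, and 4 had an unadjusted p under 0.05. None of these lists had a called gene without tumours 17 and 4, and the part of such cells in the levels of Brinp3 and Angptl7 was not tested.

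**Figure D4:**
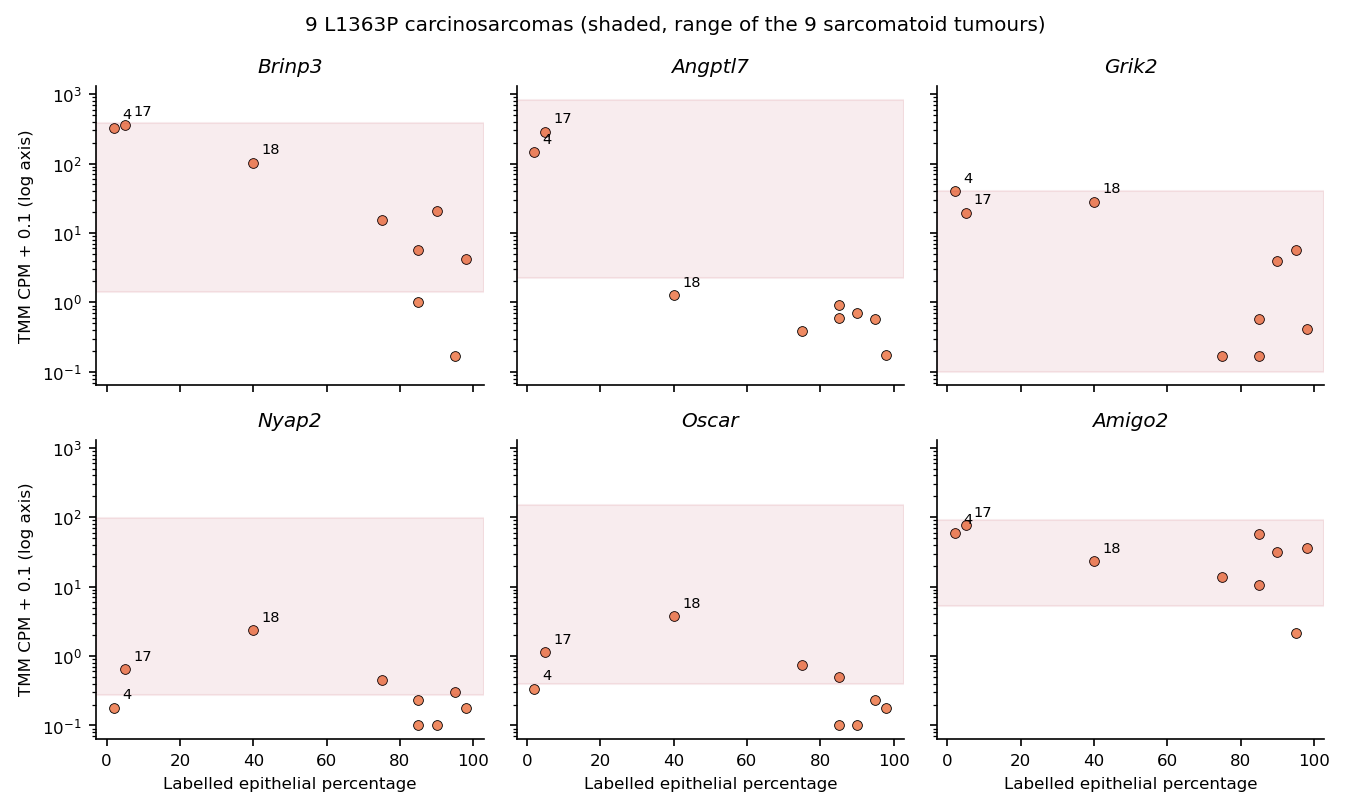
TMM CPM plus 0.1 of each gene (vertical log axis) against the labelled epithelial percentage (horizontal axis) in the 9 L1363P carcinosarcomas, with tumours 4, 17 and 18 named and the range of the 9 sarcomatoid tumours shaded. Brinp3 and Grik2 are high in all 3 named tumours, and Angptl7 in tumours 4 and 17.

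KP carcinosarcomas carried some of the genes at low levels. KP carcinosarcoma 5 reached the lowest sarcomatoid value for 5 of the 6 genes, among them Grik2, whose bound of 0 every tumour met. It reached the second-lowest for 3 (Nyap2, Oscar and Amigo2), with 1.21 CPM each of Nyap2 and Oscar, from 17 reads each. KP carcinosarcomas 26.02A and 130.10A reached the second-lowest value for Amigo2. Brinp3 had 3.81, 4.35 and 12.4 CPM in the 3 KP carcinosarcomas and 0.14, 0.39, 1.62, 83.4 and 243 CPM in the 5 KP adenocarcinomas, and the groups overlapped. Angptl7 was 0.64 to 1.55 CPM in the carcinosarcomas. Of 16147 genes tested, edgeR called 0 (0%) at a BH-adjusted p under 0.05, and 1926 had an unadjusted p under 0.05. DESeq2 called 191 and limma 1. Of the 6 genes 0 were called and 2, Angptl7 and Grik2, had an unadjusted p under 0.05. Their log2 fold changes, carcinosarcoma over adenocarcinoma, were -6.70 (SE 3.03, edgeR BH-adjusted p = 0.391) and -4.97 (SE 2.15, BH-adjusted p = 0.372), and follow tumour 90.01A. DESeq2 called Angptl7 (-6.74, adjusted p = 0.0484). Brinp3 had -3.18 (BH-adjusted p = 0.512), Amigo2 0.21, Nyap2 -0.08 and Oscar -0.38.

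KB1P tumours, titled KB1P and KB1PM and averaged with equal weight, were compared with KB2P tumours by edgeR on 18492 genes, of which 13.2% were called, 5.38% higher and 7.81% lower in KB1P. Of the 6 genes 1 was called. Brinp3 was higher in KB1P (log2 fold change 2.93, SE 0.94, edgeR BH-adjusted p = 0.0269), at 0 to 2.32 CPM in KB1P, 0 to 18.5 CPM in KB1PM and 0 to 1.72 CPM in KB2P tumours. No read of it was found in 5 of 11, 3 of 10 and 16 of 23 of these tumours. The call was lost without KB1PM tumour 6 (log2 fold change 1.88, BH-adjusted p = 0.164), and genotype and sequencing run cannot be told apart in this comparison. The log2 fold changes of Angptl7 (-0.93, BH-adjusted p = 0.369), Grik2 (-0.44), Nyap2 (-0.31), Oscar (0.44) and Amigo2 (-0.27) did not pass. Nyap2 and Oscar passed the filter on low counts only through L1363P and KP tumours. KB1P, KB1PM and KB2P tumours held 5, 1 and 6 reads of Nyap2 in all, and 20, 11 and 21 reads of Oscar. The test could therefore not decide on Nyap2 and Oscar.

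The relatives and partners of the 6 genes were counted in sarcomatoid tumours against L1363P adenocarcinomas, where edgeR called 12.1% of 16147 genes higher and 18.5% lower and the median log2 fold change of all genes was -0.09. Of 4 other angiopoietin-like genes tested, 2 rose: Angptl4, an inhibitor of lipoprotein lipase, by 1.59 (SE 0.57, BH-adjusted p = 0.0351) and Angptl2 by 1.37 (SE 0.49, BH-adjusted p = 0.0361). Without sarcomatoid tumours 9.1 and 10 the count was 1 of 4. Their median levels were 123 and 299 CPM in sarcomatoid tumours and 41.5 and 116 CPM in adenocarcinomas. Brinp1, the relative of Brinp3 that passed the filter, had medians of 9.21 and 1.49 CPM and a log2 fold change of 3.15 that was not called (BH-adjusted p = 0.0865). It was called without sarcomatoid tumours 9.1 and 10.

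Of 3 other kainate receptor genes tested, none rose and 1 fell: Grik3, another subunit, by 3.97 (SE 1.10, BH-adjusted p = 0.00921), from a median of 7.44 CPM in adenocarcinomas to 0.73 CPM in sarcomatoid tumours. In the AMIGO family Amigo1 fell by 1.58 (SE 0.37, BH-adjusted p = 0.0031), from 23.9 to 8.76 CPM in medians, and Amigo3 was not called. Of 4 partners of the Nyap proteins tested, Nyap1 rose by 1.66 (SE 0.64, BH-adjusted p = 0.048) and Pik3r1, the regulatory subunit of phosphoinositide 3-kinase, fell by 1.28 (SE 0.43, BH-adjusted p = 0.0277). With carcinosarcomas 17 and 4 and adenocarcinoma 90.01A left out of the fit, 0 of the 4 rose and 1 fell.

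Of 5 genes tested from the list for Oscar signalling, 4 rose: Nfatc1 by 2.75, Tyrobp by 2.27, Fcer1g by 2.22 and Syk by 2.08 (BH-adjusted p of 0.00485 for Syk and 0.0094 to 0.012 for the others). The same count of 4 was found without tumours 9.1 and 10. Of 8 osteoclast markers 5 rose, with Atp6v0d2 by 5.45 (BH-adjusted p = 0.0194) and Ctsk by 5.41 (BH-adjusted p = 0.0136) at the top, and the median over the list was 3.88. Without tumours 9.1 and 10 the count was 3 of 8. Against L1363P carcinosarcomas, where edgeR called 7.45% of genes higher, 6 of 8 osteoclast markers rose, and 2 of 8 without tumours 9.1 and 10.

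The neural label of the set was checked against neuron and glial markers. Of 9 neuron markers tested against adenocarcinomas, 1 rose, Elavl4, an RNA-binding protein (3.57, SE 1.18, BH-adjusted p = 0.0241, median 1.37 CPM), and the median over the list was 1.87. Without tumours 9.1 and 10 it was 2 of 9. Some defining neuronal genes, named after their values were seen, were near 0 in sarcomatoid tumours: Rbfox3, which encodes the nuclear protein NeuN, had a median of 0.302 CPM, Syt1 0.323 CPM and Snap25 0.34 CPM with 2 of 9 tumours at 0. Rbfox3, Syt1 and Snap25 were picked from the 10 listed neuron markers and do not stand for the list, whose median log2 fold change was 1.87. The summed level of the 10 neuron markers was 34.9 to 535 CPM in sarcomatoid tumours and 19.4 to 157 CPM in adenocarcinomas. Most of the highest values came from Stmn2, with up to 467 CPM. The part of neuronal RNA in the levels of the 6 genes was not tested. Of 7 Schwann and glial markers none rose and 5 fell, led by Sox10, a transcription factor also found in mammary epithelium (-7.07, SE 1.23, BH-adjusted p = 0.000284), and Erbb3, a receptor that epithelium shares (-5.18, SE 0.99, BH-adjusted p = 0.000593).

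Other cell types differed between the same groups. Of 9 macrophage markers 8 rose, of 8 fibroblast markers 4 and of 6 endothelial markers 4, and all 9 epithelial markers fell. The summed macrophage markers were 4177 to 8213 CPM in sarcomatoid tumours and 682 to 1427 CPM in L1363P adenocarcinomas, and the summed fibroblast markers 9844 to 21000 CPM and 1754 to 3178 CPM. Within the sarcomatoid group, tumour 9.1 did not lead either sum, with 5364 CPM of macrophage and 13833 CPM of fibroblast markers. The part of these cell types in the levels of the 6 genes was not tested.

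The genes most like each member were ranked by Pearson r of log2 CPM over the 29 L1363P and KP tumours, which share 1 sequencing run and the same split by histology, so that these values describe the libraries and carry no test. For Brinp3 they were Dtnbp1 (0.933), Msln (0.927), which encodes mesothelin, and Fmnl1 (0.917). For Angptl7 they were Zfpm2 (0.945), Htra1 (0.940), a secreted serine protease, and Scpep1 (0.939). For Grik2 they were the potassium channel gene Kcna4 (0.901), Gdpd2 (0.897) and again Msln (0.862). Msln had 1.74 CPM in the lowest sarcomatoid tumour, with a median of 216 CPM in the group.

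Nyap2 and Oscar were each other's closest gene (0.974). Next came Atp6v0d2 (0.935) and Nfatc1 (0.932) for Nyap2, and Atp6v0d2 (0.949) and Ctsk (0.932) for Oscar. The list for Amigo2 differed in kind and had lower values, with Tor1aip1 (0.854) and the interferon pathway genes Stat2 (0.831) and Trim30a (0.831). All 3 had their highest sarcomatoid value in tumour 20, as Amigo2 did.

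Neighbouring genes on the chromosome, the next protein-coding genes in order at any distance, were read beside the members. Their distances were not computed. Next to Nyap2, Cul3 had 279 CPM in tumour 9.1 against a sarcomatoid median of 240 CPM, and Irs1 had 32.0 CPM, equal to the median. Dock10, on the same side as Cul3, was highest in tumour 9.1, at 127 CPM against a median of 48.2 CPM. Next to Oscar, Ndufa3 had 47.5 CPM against a median of 35.9 CPM, and Tfpt 13.5 against 13.7 CPM. None of these was raised to the degree of Nyap2 or Oscar. Among the neighbours of Brinp3, Ptgs2, which encodes cyclooxygenase-2, had a median of 552 CPM in sarcomatoid tumours and 7.86 CPM in adenocarcinomas. Pla2g4a, a phospholipase that supplies cyclooxygenase-2, had 172 and 29.8 CPM. Rgs1 had 14.4 and 6.96 CPM, Rgs18 had 9.12 and 0.831 CPM, and Rgs21 and Pdc had medians of 0 in both. In tumour 10, where Brinp3 was nearly missing, Ptgs2 had 179 CPM, and its lowest value was 93.9 CPM, in tumour 9.1. Mtor, on the strand opposite to Angptl7, had 119 CPM in tumour 9.1 and a median of 129 CPM in sarcomatoid tumours, and thus did not share the low value of Angptl7 in tumour 9.1.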

How the data were processed

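RNA from 73 mouse mammary tumours was analysed from a table of raw read counts per gene, deposited by the authors, and a second table of log2 normalized counts, which the authors deposited beside it. Per the submitters' processing notes, reads were handled with cutadapt 2.10, STAR 2.7.3a, featureCounts 2.0.0 and DESeq on mm10, with the role of each not given in the sources used here. Total counts per library ran from 7325180 to 31615237. Among the symbols, 24 had been changed to dates.

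The 6 genes and the 15 lists of related and marker genes were chosen with earlier results of these data known. Levels are CPM with TMM factors (edgeR 4.0.16, R 4.3.3) over all 73 libraries. Tests used edgeR's quasi-likelihood F test after filterByExpr (minimum count 10), with Benjamini-Hochberg adjustment over all genes tested and a threshold of 0.05. The standard error is the absolute log2 fold change divided by the square root of F. The L1363P and KP comparisons were fitted on the 29 libraries of run 5625, the slope on the 9 L1363P carcinosarcomas, and KB1P against KB2P on all libraries. DESeq2 1.42.0, limma 3.58.1 on the log2 table, no filter, and fits without named tumours were alternatives. The edgeR fits were also run on simulated counts drawn from the fitted spread, without outlying tumours like those named above. No result given here rests on that run. Correlations used log2(CPM + 0.5) with exact two-sided permutation tests over all 362880 orders of 9 tumours.

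Genes named are the 6 members, at most 4 called genes per list with the largest change, list genes set beside a member, and the 3 genes most like each member, leaving out Gm and Rik symbols and the member itself. Neighbouring genes, at most 3 on each side, and the defining neuronal genes were named after their values were seen. Gene positions are from GENCODE and promoters from RefSeq.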

Additional observations from a re-analysis of the deposited data

Results flagged for a closer look

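Within groups of 4 to 10 tumours, 24 combinations of gene and group were screened for a highest or lowest tumour whose gap to the next was large against the whole range of the group. Of the 24 combinations 12 were marked. For normally distributed values, chance alone would mark about 1 in 20. The screen used CPM without a log transform, and whether that rate holds for such values was not tested. The 12 can therefore not be read as an excess over chance. No explanation was tested.

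Among sarcomatoid tumours, Brinp3 was low in tumour 10 at 1.33 CPM, where the next tumour had 192 CPM. Nyap2 and Oscar were high in tumour 9.1 at 96.7 and 148 CPM, where the next had 5.65 and 7.92 CPM, and Amigo2 was high in tumour 20 at 90.7 CPM, where the next had 32.9 CPM. Among L1363P carcinosarcomas, tumour 18 stood apart for Nyap2 at 2.25 CPM and for Oscar at 3.63 CPM. Among KP adenocarcinomas, tumour 90.01A stood apart for Angptl7 at 540 CPM, where the next had 0.47 CPM, and for Grik2 at 75.1 CPM, where the next had 11.5 CPM.

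Among KB1PM tumours, tumour 6 stood apart for both Brinp3 at 18.5 CPM and Grik2 at 9.70 CPM, and tumour 3 for Amigo2 at 24.9 CPM. Nyap2 had 0.0588 CPM in KB1PM tumour 2, which is 1 read against 0 in the other 9.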

How the results depend on the processing

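For KP carcinosarcomas against adenocarcinomas, where edgeR called 0 genes, DESeq2 called 191 genes and 1 of the 6 members, limma 1 gene, the fit of both groups alone 2, and the fit without adenocarcinomas 90.01A and 39 called 54. Leaving out 1 tumour in turn gave 0 to 2 genes. For the epithelial slope (1222 genes, 2 members), DESeq2 called 3138 genes, the fit without tumour 54.2 called 755, and the fits without tumours 17 and 4, and without 17, 4 and 18, called 0 genes and 0 members. For KB1P against KB2P (2439 genes, 1 member), the KB1P-titled tumours alone gave 962 genes, and these tumours alone, limma and the fit without KB1PM tumour 6 gave 0 members. Leaving out 1 adenocarcinoma in turn gave 2490 to 4260 genes for sarcomatoid against adenocarcinoma tumours (4945 with all). Without carcinosarcomas 17 and 4 and adenocarcinoma 90.01A, sarcomatoid against carcinosarcoma tumours gave 5994 genes and not 3468, and Amigo2 changed sign from -0.43 to 0.0507. At least 4 of the 6 genes were carried by 8 tumours at the lowest sarcomatoid value, 5 at the second-lowest and 0 at the median. At the lowest value Grik2 counted for every tumour, since its bound was 0. The count of correlated pairs fell from 1 to 0 without tumours 9.1 and 10. The cause of these changes was not tested.

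A replicate block on the 5 numbers shared by KB1P and KB2P called 16 genes and 0 members. Same-numbered tumours correlated at 0.04 to 0.38, 4 of 5 above 0.1, and 4 of 5 were closest to their own number, a hint of pairing from the data that not every pair shows. The labels do not say what a number marks, so the tumours were not treated as paired. Brinp3 did not pass the filter in this smaller fit, so its call was not retested there. Depth limits Nyap2 and Oscar outside the sarcomatoid tumours, where most values rest on 3 reads or fewer.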
